A study of Arabidopsis thaliana with 6 samples.

Results

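The genes described here are protein-coding genes of the Arabidopsis thaliana mitochondrial genome, measured on Affymetrix ATH1 arrays in seedlings exposed to the explosive 2,4,6-trinitrotoluene (TNT). Members are probe sets that the array annotation pairs with a single mitochondrion-encoded gene whose lower-case symbol starts with nad, cox, cob, ccm or ccb, atp, or orf. Of 22746 probe sets that are not controls, 21 met the rule, and they stand for 14 of the 13350 genes named by a probe set of their own. Complex I (NADH dehydrogenase) has 15 of these probe sets for 8 genes, of which 7 probe sets are for nad1 alone. Complex IV (cytochrome c oxidase) has 2, for cox1 and cox2, and the maturation of c-type cytochromes has 4, for ccmB, ccmFC, ccmFN1 and ccmFN2. No member has the stem cob, atp or orf. A further 6 probe sets carry the names nad1, cob, cox3, atp1 or atp9 together with a nuclear locus on chromosome 2, so they were left out. The annotation marks 3 members (nad6, ccmFC and 257338_s_at of nad5) as s_at, a type whose probes can match more than a single transcript.

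All plants were Columbia (Col-0) seedlings, sampled as whole plants after 13 days in shaken liquid medium with 20 mM sucrose, 10 to a flask of 100 ml medium, under a 16 h photoperiod. The TNT group (3 arrays) received TNT at 60 µM from a stock in dimethylformamide (DMF) and was collected 6 h later. The DMF group (3 arrays) received 60 µl of the solvent alone and was collected at the same time. Titles give replicate numbers to 5 of the 6 arrays, and the unnumbered TNT array is called replicate 1 here. Nothing in the labels says that the arrays of a group stand for different flasks. The p-values therefore cover the spread among these arrays only, part or all of which may be technical.

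The mitochondrial respiratory chain passes electrons from NADH through complexes I, III and IV to oxygen and pumps protons that drive ATP synthase. In plants a small set of its subunits is made inside the organelle and the rest is imported from nuclear genes. Plant mitochondrial transcripts are edited from C to U, several (nad1, nad2 and nad5 among them) are assembled from separate precursors by trans-splicing, and most mature transcripts lack a stable poly(A) tail, since tails there mark RNA for decay. Labelling followed the 3′ IVT kit named in the labels, which primes on poly(A). How much of each signal came from tailed RNA was not measured. Chromosome 2 of the Arabidopsis nucleus also carries a large copy of the mitochondrial genome, and whether probes of the members match it was not examined. TNT bears on this organelle because a monodehydroascorbate reductase of mitochondria and plastids, MDHAR6, is known in Arabidopsis to reduce it to a radical.

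Signals of the members were modest. The median member lay between percentile 42.0 (TNT replicate 3) and 52.1 (TNT replicate 2) of all probe sets on an array. A floor was set on each array at the highest of 27 bacterial control probe sets, which lay at 7.76, 11.9 and 12.1 on TNT replicates 1, 2 and 3 and at 6.34, 14.3 and 9.19 on the DMF arrays. Of the 21 members, 16 lay above the floor on all 6 arrays, 4 on some of them, and nad2 on none. The test used 13648 probe sets whose mean signal reached the 40th percentile (29.2), and 14 members of 11 genes were among them. The weakest member tested had a mean signal of 29.7 and the strongest one not tested 27.9. The 7 members under the limit were the probe sets of nad2, nad7 and ccmFN2 and 4 of the 7 for nad1. The plot of every member on every array shows this order of signals, although a signal also depends on the probes and does not rank genes by abundance.

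**Figure D1:**
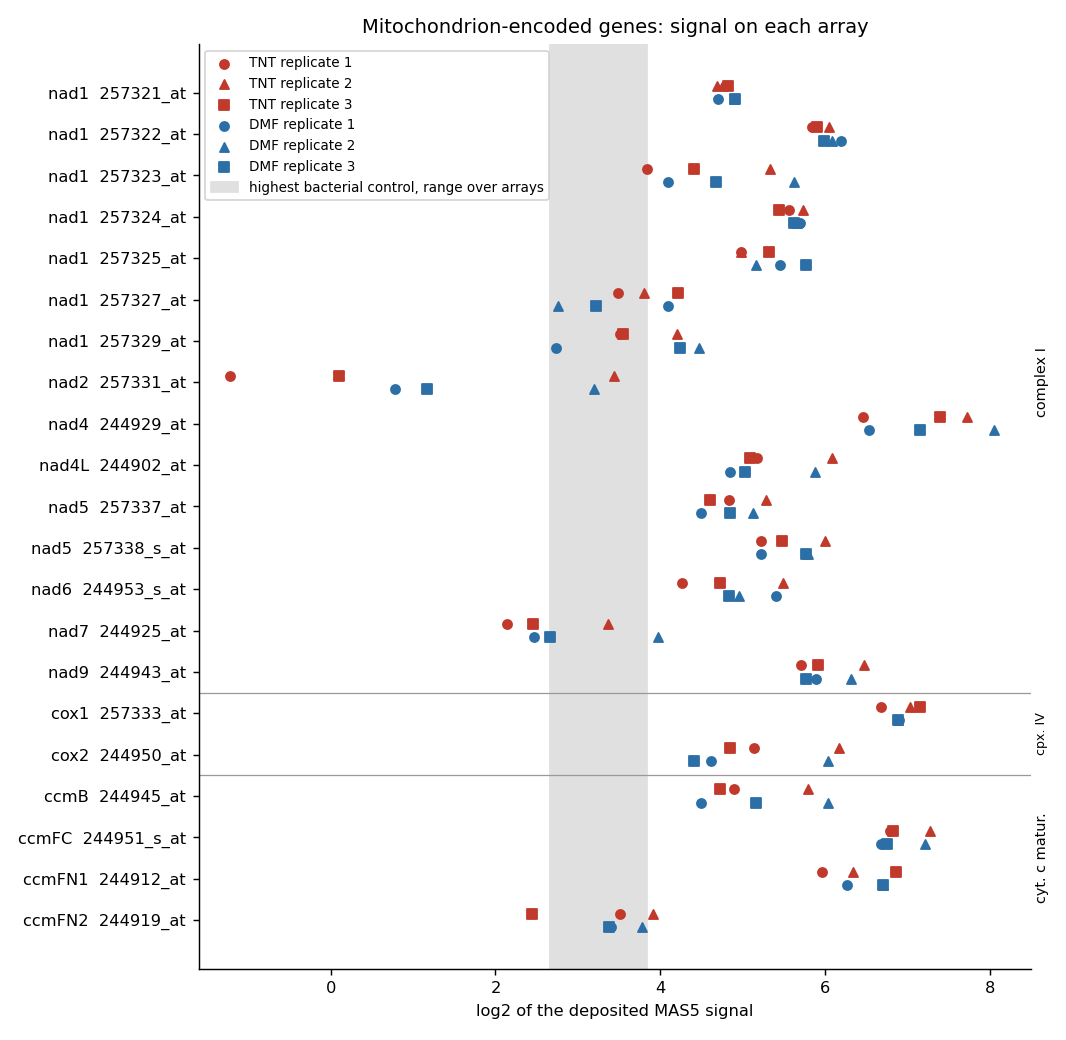
Signal of each of the 21 probe sets on each array, as log2 of the deposited MAS5 signal (x axis), by complex (TNT red, DMF blue, symbols by replicate number). The grey band spans the floors of the 6 arrays, and the probe set of nad2 lies under its floor on all of them; for 12 of 21 members both triangles, the arrays numbered 2, are the highest points.

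With TNT no member differed from DMF beyond the spread between arrays. Over all 6 arrays limma called 0 of 14 tested members at a Benjamini-Hochberg adjusted p under 0.05, where it called 0% of the 13648 probe sets. At an unadjusted p under 0.05 it took 0 of 14 members and 8.81% of all tested probe sets. The median log2 difference (TNT minus DMF) of the members was -0.04, beside -0.01 for all tested probe sets, with 6 members positive and 8 negative. Negative differences made up 52.2% of all tested probe sets. TNT and DMF signals overlapped for every one of the 21 members, where 10% of all probe sets, tested or not, did not overlap. In this unpaired fit 9 of 14 members had a 95% interval that stayed within a 2-fold change either way, and bounds reached -1.13 and 1.53 on the log2 scale. Same-numbered arrays deviated together, and with the replicate number as a block the intervals narrowed: 13 of 14 stayed within 2-fold, bounds reached -1.07 and 0.80, and limma still called 0 of 14 members. In whole seedlings, less RNA in each cell and fewer cells or mitochondria cannot be told apart, and signals scaled to a common level cannot show a change in total RNA.

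**Figure D2:**
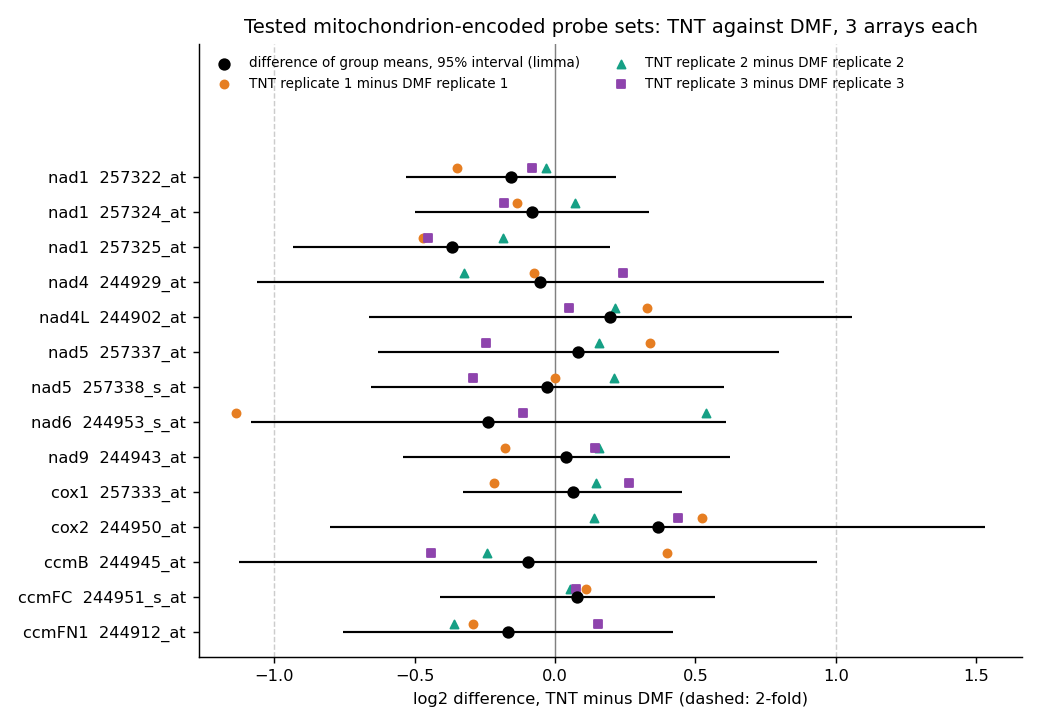
Log2 difference of TNT minus DMF (x axis) for the 14 tested members. Black points with bars are limma estimates with 95% intervals over 3 arrays a group, all of which include 0; small symbols are the differences within each replicate number, and dashed lines mark a 2-fold change.

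Complex I had 9 tested members, 3 positive and 6 negative, with a median log2 difference of -0.05. nad4 encodes one of the proton-pumping membrane subunits. Its signals were 87.7, 211.4 and 167.8 on TNT replicates 1, 2 and 3, against 92.3, 264.9 and 141.8 on DMF replicates 1, 2 and 3. In both groups replicate 1 was lowest and replicate 2 highest, and the groups overlapped. The log2 difference was -0.05 ± 0.44 (SE, n = 3 each; limma adjusted p = 0.983), with a 95% interval from -1.06 to 0.96. nad9, a subunit of the arm that reaches into the matrix, had 52.4, 88.8 and 60.0 on the TNT arrays, against 59.2, 79.7 and 54.4 on the DMF arrays. Replicate 2 was again the highest of each group, and the difference was 0.04 ± 0.25 (limma adjusted p = 0.980).

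The other tested genes of complex I are small or membrane-bound subunits, and they gave differences of either sign. nad4L had signals of 36.2, 68.0 and 33.9 with TNT, against 28.8, 58.7 and 32.7 with DMF, a log2 difference of 0.20 ± 0.37 (SE; limma adjusted p = 0.925). TNT lay above DMF in each of its replicate pairs, but the groups overlapped, because replicate 2 of either group stood far above the rest. nad6 had 19.2, 44.8 and 26.4 with TNT, against 42.2, 30.9 and 28.5 with DMF, and differed by -0.24 ± 0.37 (limma adjusted p = 0.910). Among the tested members its pairs disagreed most, with TNT replicate 1 the lowest of all arrays and TNT replicate 2 the highest.

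nad5, another proton-pumping subunit, is read by 2 probe sets. Probe set 257337_at gave 28.6, 38.8 and 24.3 with TNT, against 22.6, 34.9 and 28.8 with DMF, and a log2 difference of 0.08 (limma adjusted p = 0.968). Probe set 257338_s_at gave 37.3, 64.0 and 44.3 with TNT, against 37.3, 55.3 and 54.3 with DMF, and a difference of -0.03 (limma adjusted p = 0.988). Both had TNT replicate 2 as their highest array, and neither pair of groups was apart. nad2, also a proton-pumping subunit, had signals of 0.43, 10.9 and 1.07 with TNT, against 1.72, 9.13 and 2.24 with DMF. All 6 lie under the floor, so no fold is given. nad7 of the matrix arm had 4.39, 10.3 and 5.48 with TNT, against 5.52, 15.7 and 6.35 with DMF. Only DMF replicate 2 passed its floor, and no fold is given for nad7 either.

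nad1 encodes the membrane subunit next to the quinone site of complex I, and its 7 probe sets behaved differently from each other. The 3 tested ones were negative, at -0.16 ± 0.16 for 257322_at, -0.08 ± 0.18 for 257324_at and -0.37 ± 0.25 for 257325_at on the log2 scale (SE, n = 3 each). Their limma adjusted p-values were 0.841, 0.938 and 0.718. They share a target gene, so they are not independent evidence of a direction. Probe set 257325_at had the lowest adjusted p of the tested members, with signals of 31.6, 31.6 and 39.8 with TNT, against 43.8, 35.9 and 54.5 with DMF. TNT lay below DMF in all 3 of its pairs, while TNT replicate 3 lay above DMF replicate 2, and its 95% interval reached from -0.93 to 0.20. With the replicate number as a block, its limma adjusted p was 0.327.

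**Figure D3:**
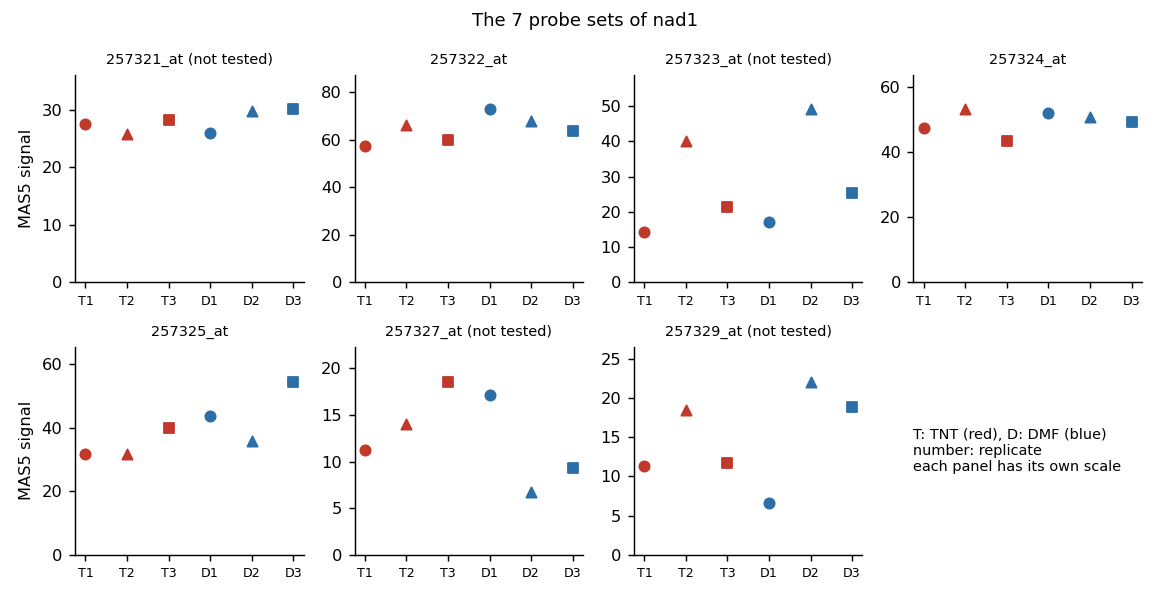
Deposited MAS5 signal (y axis, linear, from 0, its own scale in each panel) of the 7 probe sets of nad1 on each array. Probe set 257323_at is highest on both arrays numbered 2 (40.2 with TNT and 49.2 with DMF), whereas 257321_at stays between 25.8 and 30.1 on all 6.

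The 4 untested nad1 probe sets had no common pattern. Probe set 257323_at gave 14.3, 40.2 and 21.3 with TNT, against 17.1, 49.2 and 25.5 with DMF. TNT was lower by a nearly equal amount in each pair (log2 differences of -0.25, -0.29 and -0.26), and the difference between replicate numbers was several times wider. Probe set 257321_at was flat, at 27.6, 25.8 and 28.1 with TNT, against 26.0, 29.7 and 30.1 with DMF. The weakest, 257327_at and 257329_at, crossed the floor from array to array. 257327_at gave 11.2, 14.0 and 18.6 with TNT, against 17.1, 6.74 and 9.32 with DMF. 257329_at gave 11.4, 18.4 and 11.6 with TNT, against 6.66, 22.1 and 18.8 with DMF. Which stretch of the nad1 transcripts each probe set reads was not examined.

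Complex IV had 2 tested members, both positive, with a median log2 difference of 0.21. cox1 encodes the catalytic core that reduces oxygen. Its signals were 102.1, 130.0 and 142.0 with TNT, against 118.8, 117.5 and 118.3 with DMF. The DMF arrays were nearly identical (SD of 0.01 on the log2 scale) and fell inside the range of the TNT arrays (SD of 0.25). The log2 difference was 0.06 ± 0.17 (SE, n = 3 each; limma adjusted p = 0.952), with a 95% interval from -0.33 to 0.45. cox2, the subunit that takes electrons from cytochrome c, had 35.2, 71.8 and 28.8 with TNT, against 24.5, 65.3 and 21.3 with DMF. TNT lay above DMF in all 3 pairs, at log2 differences of 0.52, 0.14 and 0.44. DMF replicate 2 nevertheless exceeded TNT replicates 1 and 3, and the group difference of 0.37 ± 0.50 had a limma adjusted p of 0.894 (0.349 with the replicate number as a block).

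The genes of cytochrome c maturation encode the machinery that attaches haem to c-type cytochromes, and 3 of their 4 probe sets were tested, with a median log2 difference of -0.10. ccmFC, a part of the haem lyase, had signals of 110.2, 153.9 and 113.2 with TNT, against 102.0, 148.4 and 107.4 with DMF. Its pairs lay close together, at 0.11, 0.05 and 0.08, and the difference was 0.08 ± 0.21 (SE, n = 3 each; limma adjusted p = 0.952). ccmFN1, another part of the lyase, had 62.4, 81.1 and 115.9 with TNT, against 76.6, 104.3 and 104.4 with DMF, and differed by -0.17 ± 0.25 (limma adjusted p = 0.907). TNT replicate 3 was its highest array. ccmB, a membrane component of an ABC transporter, had 29.6, 55.1 and 26.4 with TNT, against 22.5, 65.3 and 35.8 with DMF, and differed by -0.10 ± 0.45 (limma adjusted p = 0.974). ccmFN2, the remaining piece of the lyase, stayed near the floor at 11.4, 15.1 and 5.42 with TNT, against 10.5, 13.7 and 10.3 with DMF.

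Read by replicate pair, the members had no common sign. In pairs 1, 2 and 3, 6, 9 and 7 of the 14 tested members were higher with TNT, with median log2 differences of -0.10, 0.10 and -0.02. Over all 21, 3 were higher with TNT in every pair (nad4L, cox2 and ccmFC) and 4 were lower in every pair (nad7 and nad1 probe sets 257322_at, 257323_at and 257325_at). Of these, nad7 passed its floor on DMF replicate 2 only. Of all 22746 probe sets, 15.3% were higher and 20.2% lower in every pair, so 3 and 4 of 21 lie near the background.

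Values without TNT replicate 2 are given as well. This array was singled out because earlier results of these data had placed it near the DMF arrays. Calls in this comparison therefore depend in part on that choice, which favours a difference. limma's array weights over the 6 arrays were lowest for it, at 0.26, and next lowest for DMF replicate 2, which was kept, at 0.43. The weights were estimated from the same signals and are no independent reason to leave it out. On the 5 other arrays limma called 7.23% of the 13648 probe sets and 0 of 14 members, whose adjusted p-values ran from 0.361 to 0.984. In this comparison 13 of 14 members had a negative difference, with a median of -0.17 on the log2 scale, beside 54% of all tested probe sets and a median of -0.04. nad6 moved to -0.57 (limma adjusted p = 0.361), ccmB to -0.42 and nad4 to -0.32. In this comparison DMF replicate 2 was kept without the TNT array of the same number. What lay behind the negative sign was not tested. Without both arrays numbered 2, limma again called 0 of 14 members, 6 were positive and 8 negative, and the median was -0.02.

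The widest variation among the members followed the replicate number, in seedlings of either treatment. Both arrays numbered 2 gave the highest signals of the 6 for 12 of 21 members, as they did for 29.5% of all probe sets. The 12 include nad2, nad7 and ccmFN2, whose signals lay under the floor on some or all arrays. Among tested probe sets they were highest for 8 of 14 members and 3072 of all 13648. The median member lay 0.42 above its own mean over the arrays (log2) on TNT replicate 2 and 0.30 above it on DMF replicate 2. On the other arrays it lay at -0.27 and -0.18 with TNT, and at -0.25 and -0.03 with DMF. A contrast of the arrays numbered 2 with the other 4, in a fit with treatment and number, was added after this pattern had been seen. It therefore describes these arrays and is no independent test.

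In that contrast 13 of 14 tested members were positive, with a median log2 difference of 0.48, beside 56.9% of all tested probe sets and a median of 0.07. limma called 2 of 14 members higher, where it called 1.26% of all tested probe sets higher. These were cox2, at 1.35 ± 0.19 (SE; limma adjusted p = 0.0371), and nad4, at 1.01 ± 0.16 (limma adjusted p = 0.0445). ccmB (1.09) and nad4L (0.95) lay near nad4, under cox2, and missed the threshold, with limma adjusted p-values of 0.0600 and 0.0513. nad9 and ccmFC were higher by 0.58 and 0.48, at limma adjusted p-values of 0.0766 and 0.0736. Both nad5 probe sets (0.50 and 0.48) and nad6 (0.41) were positive too, at limma adjusted p-values from 0.136 to 0.468. Other members lay near or below 0: cox1 stood at 0.05, ccmFN1 at 0.08, and nad1 probe sets 257322_at, 257324_at and 257325_at at 0.09, 0.12 and -0.31.

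The arrays numbered 2 also differed from the rest in ways that touch low signals. Their lower quartile of all probe sets was 14.9 (TNT) and 17.1 (DMF), where the other arrays had 10.1 and 11.2 with TNT and 9.73 and 12.3 with DMF. The 3126 probe sets with mean signals of 20 to 40 lay 0.39 higher on the arrays numbered 2 (median, log2). Those of 40 to 80 lay 0.18 higher and those of 80 to 160 lay 0.05 higher. All 21 members, some with mean signals under 20, lay 0.54 higher, and the 14 tested members 0.49 higher. After quantile normalization, which gives all arrays one distribution, the values were 0.31 for all members and 0.33 for the tested ones. That of probe sets of 20 to 40 was 0.02. In the contrast the median of the 14 tested members, 0.48 as deposited, was then 0.21. limma still called 2 of 14 members higher (1.61% of all tested probe sets), and 10 of 14 were positive (50.6% of all tested probe sets), while nad5 stood at 0.15 and 0.26 and nad6 at 0.05. Centring each array on its median moved all tested probe sets to a median of -0.17 in this contrast, in place of 0.07. The members' median was then 0.24, 2 of 14 were called higher (1.58%) and 9 of 14 were positive (33.2%). Hybridisation spikes, added in fixed amounts, had medians of 170.6 (TNT) and 170.9 (DMF) on the arrays numbered 2, where the other arrays had 221.8 and 298.0 with TNT and 262.6 and 246.6 with DMF. What sets these arrays apart was not tested.

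**Figure D4:**
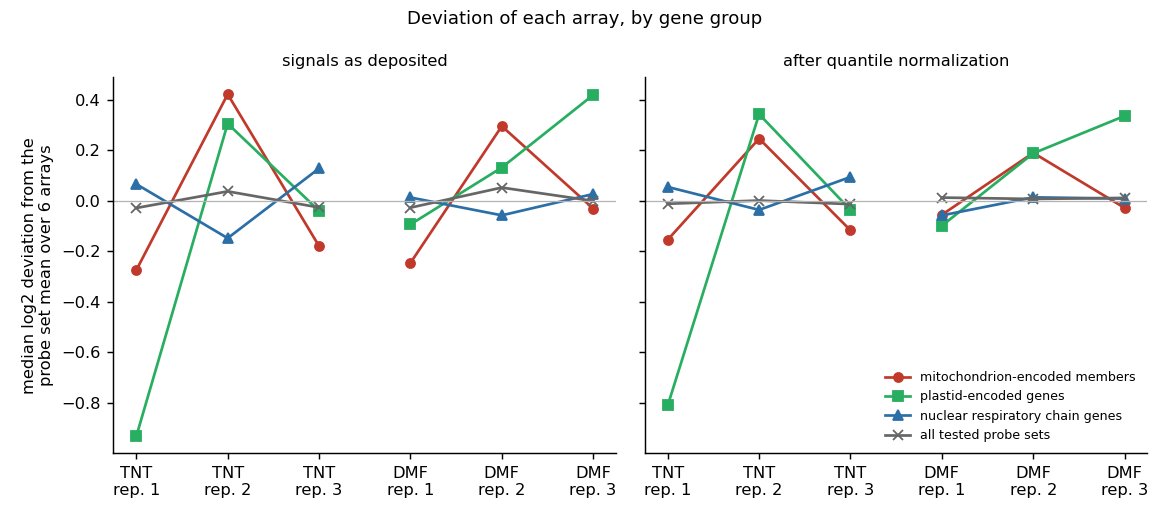
Median log2 deviation of each gene group from its probe sets' own mean over 6 arrays (y axis), by array (x axis), as deposited (left) and after quantile normalization (right). The mitochondrion-encoded members are highest on replicate 2 of each treatment, and the 18 tested nuclear respiratory chain probe sets are not. The mean signals of those 18 (194 to 1293) lie above those of the members (4.24 to 161). The plastid-encoded genes are lowest on TNT replicate 1 and above their means on both arrays numbered 2 and on DMF replicate 3. In that order they stand at 0.34, 0.19 and 0.34 after quantile normalization.

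Other transcripts of the mitochondrial genome, from a list of 9 genes outside the symbol rule, had a probe set of their own in 2 cases. mttB, which encodes a protein-translocase homologue, gave 25.2, 54.9 and 44.2 with TNT, against 25.1, 63.4 and 41.5 with DMF, a log2 difference of -0.04 ± 0.41 (SE; limma adjusted p = 0.990). matR, a maturase gene inside an intron of nad1, was not tested and gave 0.72, 31.2 and 13.4 with TNT, against 5.15, 35.3 and 7.31 with DMF. Both had their highest signals on the arrays numbered 2. Of the 6 probe sets that share a name with a chromosome 2 locus, 4 were tested and 0 called over the 6 arrays, at a median of 0.08.

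Nuclear genes for the same respiratory chain were read by 20 probe sets, from lists for complexes I to V and cytochrome c, and 18 were tested. limma called 0 of 18 over the 6 arrays and 0 of 18 without TNT replicate 2. With the replicate number as a block on those 5 arrays it called 3772 of all 13648 probe sets, 1784 of them higher. The higher calls included 3 of the list, CYTC-2, PSST and CYTC-1 (limma adjusted p = 0.00493, 0.0288 and 0.0355), and 0 of 14 members were called. DMF replicate 2 is alone in its block there, so this treatment estimate rests on pairs 1 and 3 only. It leaves 1 degree of freedom for the spread. In pair 2 PSST was lower with TNT. The median log2 difference of the 18 was 0.04 over 6 arrays, 13 were positive and 5 negative, and all 18 intervals stayed within 2-fold. CYTC-2, a cytochrome c gene, had the largest difference of the list, with 207.7, 268.4 and 189.4 with TNT, against 143.4, 222.1 and 131.8 with DMF. It was higher with TNT in all 3 pairs, at 0.44 ± 0.24 (SE, n = 3 each, limma adjusted p = 0.643). In the signals as deposited, it was the only tested one of the list with a positive difference on the arrays numbered 2, at 0.56. After quantile normalization 7 of 18 were positive there. CYTC-1, the other cytochrome c gene, had 1510.5, 1141 and 1597 with TNT, against 1131, 1106 and 1272 with DMF, a difference of 0.26 ± 0.16 (SE, n = 3 each; limma adjusted p = 0.699). PSST, a complex I subunit of the matrix arm, had 1406, 874.4 and 1272 with TNT, against 1127, 1080 and 925.5 with DMF, a difference of 0.16 ± 0.20 (limma adjusted p = 0.878). The nuclear list as a whole lay lower on the arrays numbered 2, by a median of -0.16, and at -0.04 after quantile normalization. COX5C of complex IV differed by -0.19 (limma adjusted p = 0.729). A mitochondrial polynucleotide phosphorylase gene, PNPmito, whose product degrades organellar RNA, differed by 0.11 (limma adjusted p = 0.932).

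Plastid-encoded genes, transcripts of the other organelle, also tended to be positive in the contrast of the arrays numbered 2. In that contrast 51 of 64 tested probe sets were positive (56.9%), at a median of 0.34, and 2 were called higher (1.26%). Percentages in brackets are the shares of all tested probe sets. After quantile normalization 53 of 64 were positive (50.6%), at a median of 0.43, and 5 were called higher (1.61%). After median centring 41 of 64 were positive (33.2%), at a median of 0.10. Then 1 was called higher (1.58%) and 4 lower (1219 of all 13648 lower). Both arrays numbered 2 were highest for 7 of the 64, beside 8 of 14 tested members and 3072 of all 13648 tested probe sets. A positive contrast was thus not particular to the members. Having both arrays numbered 2 highest was less frequent among plastid genes than among all tested probe sets. Between treatments, of 69 probe sets 64 were tested; 57 were negative, the median log2 difference was -0.29, and limma called 0 of 64 over the 6 arrays. Without TNT replicate 2 the median was -0.53 and limma called 2 of 64 lower. These were matK at -1.16 (limma adjusted p = 0.0132) and rps16 at -1.09 (limma adjusted p = 0.0483). It called 454 of all 13648 tested probe sets lower, a similar share. With the replicate number as a block on those 5 arrays it called 40 of 64 lower, beside 1988 of all 13648. That treatment estimate rests on pairs 1 and 3 only. The plastid-encoded genes were lowest on TNT replicate 1, at a median of -0.93 from their own means. They stood at 0.31 and -0.04 on TNT replicates 2 and 3, and at -0.09, 0.13 and 0.42 on the DMF arrays. On TNT replicate 1 the members lay at -0.27, near their value on DMF replicate 1. The 25S ribosomal RNA control was high on both arrays numbered 1, at 965.5 with TNT and 696.4 with DMF, and lay between 13.7 and 39.4 on the other 4 (exact permutation p = 0.5 for TNT against DMF, two-sided). Log2 ratios of 3′ to 5′ signal, a measure of RNA length, were 0.51 with TNT and 0.51 with DMF for actin (exact permutation p = 1) and 0.08 with TNT and 0.05 with DMF for GAPDH (exact permutation p = 0.7). That of ubiquitin averaged 0.67 ± 0.05 with TNT and 0.85 ± 0.02 with DMF (SD, n = 3 each). Its exact permutation p was 0.1, the smallest that 3 arrays against 3 allow, and its part in the members' values was not tested.

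Markers of seedling organs were present: PYK10 of roots gave 3014, 2598 and 3214 with TNT, against 3339, 2690 and 3257 with DMF, and PRK of green tissue 1012, 1510 and 1093 with TNT, against 1780, 1524 and 1884 with DMF. The pollen gene AT3G28750 lay under the floor on 4 of the 6 arrays. Of the markers listed, 3 of 5 for roots and 1 of 6 for green tissue had a probe set of their own. Over all 6 arrays PRK differed by -0.54 on the log2 scale (limma adjusted p = 0.513). The root markers PYK10, EXPA7 and EXPA18, the last a root-hair gene, differed by -0.07, -0.87 and -1.06 (limma adjusted p = 0.929, 0.570 and 0.455). Without TNT replicate 2 PRK and EXPA18 stood at -0.71 and -1.35, at limma adjusted p-values of 0.0330 and 0.0126. EXPA7 then stood at -1.22 (limma adjusted p = 0.0632) and PYK10 at 0.01 (limma adjusted p = 0.971). Their part in the members' values was not tested.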

How the data were processed

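The value table that the authors deposited holds linear intensity, 1 signal per probe set; the submitters' processing notes name MAS5 and GCOS. Their versions are not given in the sources used here. Without its extreme values each array had the same mean, so the arrays had been scaled before deposit. MAS5 subtracts mismatch signal, which spreads low values widely on a log scale.

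Log2 signals, with no offset and no further normalization, were fitted with lmFit and a trended eBayes (limma 3.58.1, R 4.3.3). TNT was compared with DMF by its two-sided test over the 13648 probe sets whose mean signal reached the 40th percentile, adjusted by Benjamini-Hochberg, with calls at 0.05. The pipeline was tested on simulated arrays with independent noise, without the shared deviations of same-numbered arrays. That test checked the recovery of planted changes and says nothing about the members. The number of arrays limits the precision.

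Members were matched by symbol to the array annotation and to the TAIR10.1 table of mitochondrial genes. The members, lists and tests were chosen with earlier results of these data known, and the contrast of arrays numbered 2 after seeing the data. Values on every array are given for the strongest, most variable and most different members of each complex, and those of further members were added after being seen.

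Deviations of same-numbered arrays from their group means correlated at 0.54, 0.47 and 0.42. Arrays of different numbers were not compared in this way, and 1 TNT array has no number in its title. Whether the numbers mark a true pairing was therefore not established. The labels do not say what a number stands for. Alternatives were other filters, an offset of 16, quantile normalization, median centring, no trend, array weights, a replicate block, and leaving out arrays. No sequence is printed, since no sequence table or genome was used here.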

Additional observations from a re-analysis of the deposited data

How the results depend on the processing

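Members called stayed at 0 over 6 arrays and at 0 without TNT replicate 2 in every setting run, and 2 members were called higher on the arrays numbered 2 with and without normalization. The members' median log2 difference (-0.04) ran from -0.17 to 0.14 when each array was left out in turn. The median of complex I then ran from -0.21 to 0.12, that of complex IV from 0.000305 to 0.47 and that of cytochrome c maturation from -0.32 to 0.25. With a filter at the 60th percentile, 4 members were left, complex IV stood at 0.063, and 1, 2 and 4 were higher with TNT in pairs 1, 2 and 3. The 8 tested members named by the rule stayed past no threshold in any of their 124 other settings.

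Counts over all probe sets moved more. Over 6 arrays limma called 0, but 2949 with array weights, 1419 without both arrays numbered 2, and 0 to 987 when 1 array was left out (987 without TNT replicate 2, 3 without DMF replicate 2). The 987 calls without TNT replicate 2 became 2959 with array weights, 3772 with the replicate block, 427 with only 1-gene probe sets (fewer probe sets tested), and 185 to 1419 when another array was left out: 185 without TNT replicate 1, 202 without TNT replicate 3, 415 without DMF replicate 3 and 1419 without DMF replicate 2. The counts without TNT replicates 1 or 3 leave a single TNT array, assumed to vary like the DMF arrays, which alone give the spread. Median centring gave 481 higher and 263 lower in place of 533 and 454. The replicate block left 0 calls over 6 arrays and changed no call of a member. Without TNT replicate 2 its treatment estimate rests on pairs 1 and 3 only, with 1 degree of freedom for the spread. The causes were not tested. Low signals near the floor limit nad2, nad7, ccmFN2 and the weakest nad1 probe sets.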
